A study of Homo sapiens with 12 samples.

Results

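The response of H1650 cells to osimertinib was followed by RNA-seq across all genes, from 4 of the 12 libraries of the series. H1650 is a human line of non-small cell lung cancer that carries the in-frame EGFR exon 19 deletion delE746-A750, and its labels otherwise give it as wild type. The members were chosen by label alone: 2 libraries of H1650 cells 36 h after 0.1 µM osimertinib, and 2 libraries of H1650 cells in 0.1% DMSO taken at 0 h, when the drug was added to the other wells (T0). Both groups had been seeded at the same density on the day before drugging and were grown in the same serum-containing medium, and 2 libraries labelled as replicates stand behind each group. A pair of H1650 libraries after 36 h of 10 µM erlotinib and the same 3 groups of the PC9 line, which has the same EGFR deletion, served only for comparison. Osimertinib-treated cells spent 36 h longer on the plate than T0 cells and no vehicle library of that age was analysed here, so the drug and the time in culture cannot be told apart in any difference from T0 given below.

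EGFR is a receptor tyrosine kinase that, when bound by ligands such as EGF, or when it is held active by a deletion in its kinase domain, signals through RAS, RAF, MEK and ERK and through PI3K and AKT. ERK activity drives transcription of immediate early genes and of its own inhibitors, and AKT holds FOXO factors out of the nucleus. Osimertinib is a covalent inhibitor of mutant EGFR, and erlotinib is a reversible inhibitor of the same kinase. The sequencing was done to ask whether expression changes could account for a difference in how PC9 and H1650 cells die under these drugs.

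The 4 libraries held between 20497664 and 26346187 reads assigned to genes, so that 3 reads correspond to between 0.116 and 0.143 CPM, the usual count scaled to library size. Within each group the 2 libraries differed by more than counting noise (chi-square per degree of freedom 7.16 at T0 and 5.53 after osimertinib), so none was a copy of another. Levels are given as CPM after TMM normalization, which is not divided by gene length, so levels are not compared between genes. Transcripts of the mitochondrial genome took 4.36% and 5.36% of the reads at T0 and 5.77% and 6.56% after osimertinib, and the part of this in the other differences was not tested. The labelled epithelial origin was visible in EPCAM, at 199 and 214 CPM at T0 and 317 and 306 CPM after osimertinib, and in the keratins KRT8 and KRT18, whereas NKX2-1 and the surfactant genes SFTPA1, SFTPA2, SFTPB and SFTPC did not pass the filter on low counts. Some other lung markers were called higher: the surfactant gene SFTPD went from 1.91 and 1.70 to 4.49 and 4.23 CPM, LAMP3 from 12.9 and 11 to 44.4 and 36.3 CPM and AGER from 6.67 and 8.03 to 14.8 and 17.0 CPM. NAPSA, ABCA3, HOPX and FOXJ1 of the same list were tested and not called. SLC34A2, SCGB1A1, SCGB3A1, SCGB3A2, FOXA2 and SOX2 were below the filter. Markers of blood cells were represented by CD14 alone, at 1.66 to 3.96 CPM, with PTPRC, CD3E and HBB below the filter. The summed level of 4 endothelial markers lay between 5.04 and 6.35 CPM, nearly all of it TEK, and CDH5 and PECAM1, which were called higher, had no more than 0.490 CPM in any library. DESeq2 did not call these 2 (adjusted p = 0.0781 and 0.0837), and the calls were lost without T0 replicate 2 (CDH5, adjusted p = 0.212), T0 replicate 1 (PECAM1, adjusted p = 0.226), osimertinib replicate 1 (PECAM1, adjusted p = 0.0815) or osimertinib replicate 2 (adjusted p = 0.221 and 0.129). Of 6 fibroblast markers 3 passed the filter, with a summed level of 24.9 and 24.2 CPM at T0 and 34.7 and 32.4 CPM after osimertinib, and COL3A1 was called higher, while DCN and LUM were below the filter. The part of these markers in the other differences was not tested.

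Osimertinib-treated H1650 cells lost transcripts of the actin cytoskeleton, of YAP targets, of the cell cycle and of nucleolar ribosome assembly, and gained interferon-stimulated, antigen presentation, FOXO-linked and cholesterol synthesis transcripts. The RNA was extracted from whole wells, so a change of a transcript in each cell and a change in the share of cells that hold it cannot be told apart, and no value measures RNA per cell. Of the 19108 genes tested, 6816 (35.7%) differed from T0 by the quasi-likelihood test of edgeR at a Benjamini-Hochberg adjusted p below 0.05, which is what called means throughout, and errors of fold changes are standard errors of that fit with 2 libraries per group. Of these, 3392 were higher, which is 17.8% of the genes tested, and 3424 were lower, which is 17.9%. Counts of list members below are to be read against these shares. The lists were chosen with earlier results of these data known and received no test, so a count above these shares is a description. Changes were mostly small: 1394 called genes (7.3% of those tested) moved by more than 2-fold, 930 upwards and 464 downwards, and 395 by more than 4-fold. The more than 2-fold count fell to 674 when only genes with at least 10 reads in every library of the series were tested, a filter that removes genes with few reads in any H1650 or PC9 library. Of 22 instances in which a gene list had no member called in a direction, 2 single members had an unadjusted p under 0.05 in that direction (BAD among BH3-only genes, lower, and CD14, higher), and DESeq2 called none. In 6795 of the 6816 called genes (99.7%) the treated and T0 libraries did not overlap, whereas among all tested genes 32.5% had both treated libraries above and 32.3% both below the T0 pair. Lack of overlap in a called gene below therefore adds little to its call.

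**Figure D1:**
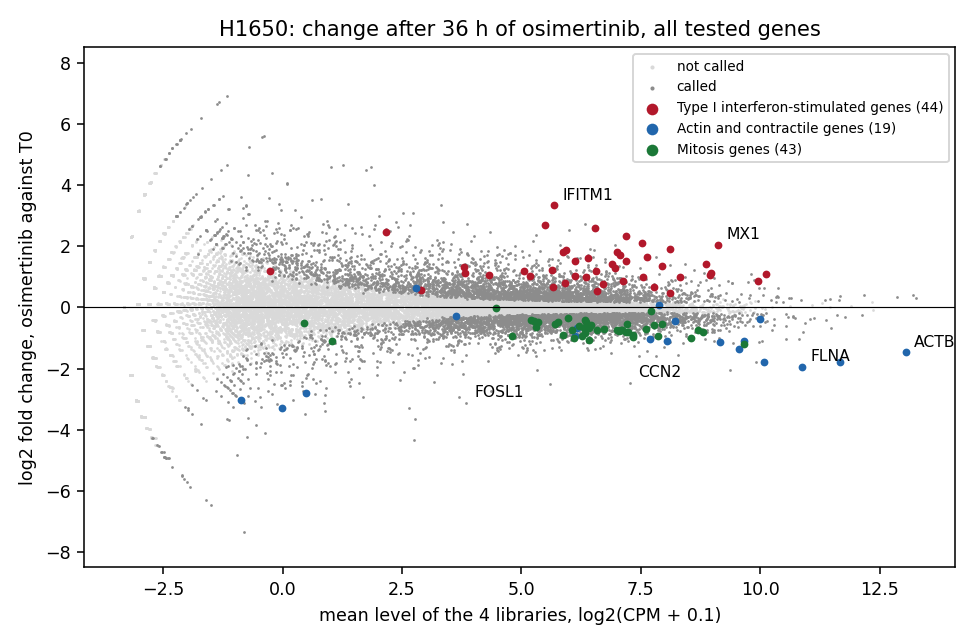
Each point is a tested gene, placed by its mean level over the 4 H1650 libraries on the x axis (log2 CPM) and by its log2 fold change, osimertinib against T0, on the y axis. Interferon-stimulated genes lie above the line of no change, with IFITM1 at 3.33, and actin genes and mitosis genes lie mostly below it, with FLNA at -1.95 and FOSL1, an AP-1 subunit, at -3.11.

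**Figure D2:**
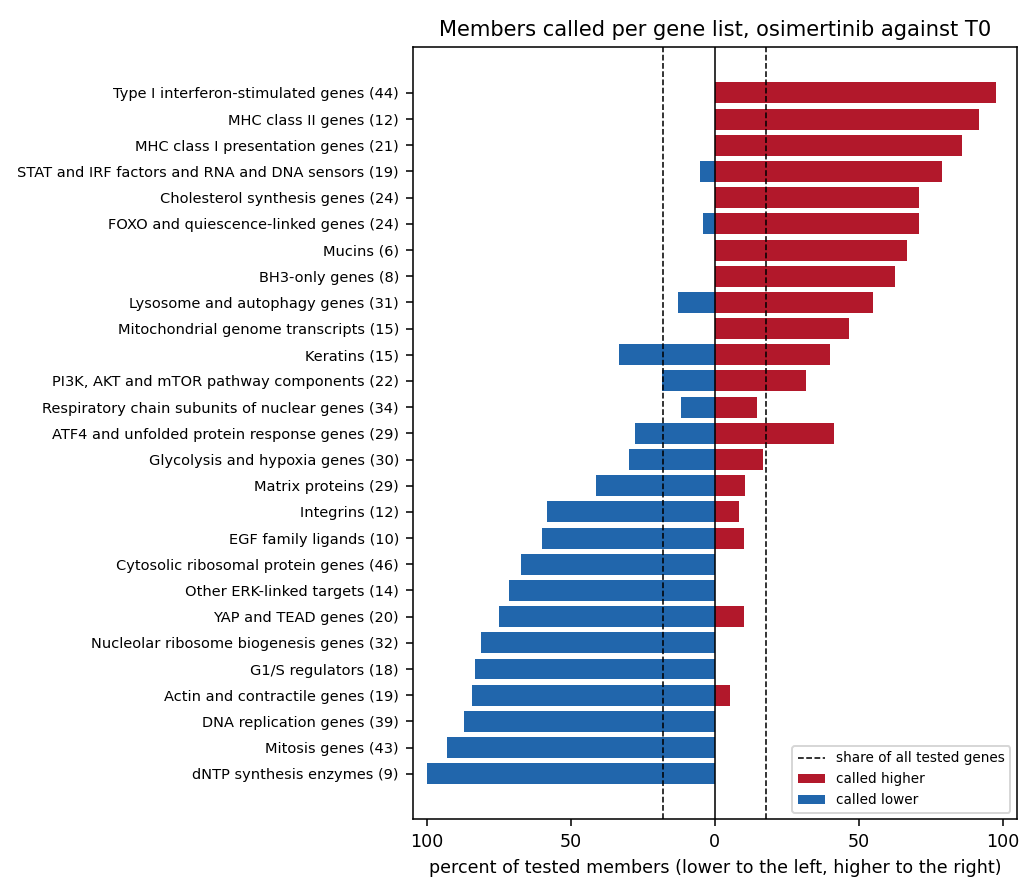
Bars give the percent of tested members of each gene list that were called higher (to the right) or lower (to the left) after osimertinib, with the number of tested members in brackets. Dashed lines mark the shares over all tested genes, 17.8% higher and 17.9% lower.

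The receptor itself was not called. EGFR (chromosome 7, 55019021 to 55211628 on GRCh38) was at 580.3 and 578 CPM at T0 and 611 and 571 CPM after osimertinib, so the groups overlapped. Its partner receptors were higher: ERBB3, which signals to PI3K, was at 27.4 and 30.9 CPM at T0 and 59.3 and 60.6 CPM after osimertinib, a log2 fold change of 1.04 ± 0.083 (SE) (adjusted p = 1.01e-10), and ERBB2 rose by 0.46 on the log2 scale. Of 10 ligand genes of the EGF family, 6 fell and 1 rose. EGF, the ligand that names the receptor, was at 10.1 and 12.2 CPM at T0 and 1.10 and 1.20 CPM after osimertinib, the steepest loss among the ligands at -3.28 ± 0.21 (SE) (adjusted p = 9.28e-13). TGFA, an autocrine ligand of epithelial tumours, went from 162 and 166 to 96.0 and 92.5 CPM. HBEGF went from 22.6 and 19.0 to 7.02 and 5.39 CPM. Both of these fell by less than EGF, at -0.80 and -1.74, with no overlap between groups. Betacellulin (BTC) was the ligand that rose, from 0.653 and 0.849 to 3.01 and 2.81 CPM.

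Genes that depend on ERK in many epithelial cells fell in part. Of 14 listed ERK targets, 10 fell and none rose (median log2 fold change -0.49), and of 10 ERK feedback genes, 4 fell and 1 rose (median -0.30). Of 16 ERK-linked transcription factors, 7 fell, 3 rose and 6 were not called (median -0.28). FOSL1 (chromosome 11, 65892049 to 65900573), the AP-1 subunit FRA-1, was at 25.4 and 25.8 CPM at T0 and 3.20 and 2.72 CPM after osimertinib. This was the deepest fall among all called genes with a mean of at least 10 CPM, -3.11 ± 0.14 (SE) on the log2 scale (adjusted p = 4.06e-16). EGR1, an immediate early zinc finger factor, went from 492 and 439 to 163 and 152 CPM (-1.56, adjusted p = 4.65e-13). CCND1, the D-type cyclin, went from 210.3 and 216 to 151 and 154 CPM, a smaller fall of -0.48 that also left no overlap. UPP1, uridine phosphorylase, went from 146 and 139 to 58.1 and 56.0 CPM and had the largest fall in the target list. DUSP7, an ERK phosphatase, fell by 0.91 on the log2 scale. Other feedback genes did not pass the test: DUSP6, the ERK phosphatase most often read as a measure of the pathway, was at 1.54 and 1.97 CPM at T0 and 1.58 and 1.43 CPM after osimertinib, and SPRY4, an inhibitor of RAS signalling, was at 4.62 and 5.44 CPM at T0 and 2.82 and 4.94 CPM after osimertinib, with overlapping groups, though it was called without osimertinib replicate 2 (adjusted p = 0.0141). FOS itself was at 138 and 118 CPM at T0 and 119 and 130.1 CPM after osimertinib, again with overlap. SPRY1 went the other way, from 4.29 and 3.59 to 9.88 and 9.22 CPM, as did the ETS factor ETV1, at 10.9 and 13.5 CPM at T0 and 40.5 and 43.9 CPM after osimertinib (1.78 ± 0.12 (SE), adjusted p = 6.19e-12).

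Most listed genes linked to FOXO factors and to quiescence rose. Of 24 listed, 17 rose and 1 fell, with a median log2 fold change of 0.76 and 10 of the called members past 2-fold. The other 6, IRS2, IGF1R, SESN1, TXNIP, PDK4 and CDKN1B, were not called. YPEL2, a small nuclear protein of the Yippee family, went from 3.92 and 3.24 to 17.2 and 13.8 CPM (2.12 ± 0.17 (SE), adjusted p = 6.4e-11). KLHL24, an adaptor of a ubiquitin ligase, went from 9.28 and 8.72 to 35.6 and 35.4 CPM (1.98 ± 0.10 (SE), adjusted p = 1.89e-14). CCNG2, a cyclin that is high in resting cells, went from 39.9 and 38.9 to 91.2 and 87.1 CPM. PIK3IP1, an inhibitor of PI3K, rose by 0.91 at a low level of 1.73 to 3.47 CPM over the 4 libraries. In each of these 4 genes both treated libraries were above both T0 libraries, and 99.7% of all called genes had no overlap. The exception was SESN3, which fell, had no more than 1.17 CPM in any library and was not called without T0 replicate 1 (adjusted p = 0.147), osimertinib replicate 1 (adjusted p = 0.0722) or osimertinib replicate 2 (adjusted p = 0.0568), and TXNIP, a glucose-regulated FOXO target, was at 35.8 and 39.2 CPM at T0 and 38.3 and 35.8 CPM after osimertinib.

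Among 22 tested components of the PI3K, AKT and mTOR pathway, 7 rose and 4 fell, with a median of 0.00. The 2 largest rises were in genes for inhibitors of mTORC1 or mTOR: DEPTOR, at 2.10 and 1.70 CPM at T0 and 6.87 and 6.73 CPM after osimertinib, and DDIT4 (REDD1), at 87.8 and 73.1 CPM at T0 and 208 and 190.1 CPM after osimertinib (1.31 ± 0.085 (SE), adjusted p = 1.59e-12). RHEB, which activates mTORC1, fell by 0.41. Of 20 receptor tyrosine kinases that can bypass EGFR, 12 were not called, 7 fell and 1, KIT, rose, a call lost without T0 replicate 1 (adjusted p = 0.0582) or osimertinib replicate 2 (adjusted p = 0.0845). AXL went from 153 and 144 to 63.3 and 60.8 CPM (-1.26 ± 0.079 (SE), adjusted p = 9.16e-13), and MET, the receptor of hepatocyte growth factor, went from 369 and 368 to 237 and 235 CPM (-0.64 ± 0.073 (SE), adjusted p = 5.63e-08).

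Cell cycle transcripts fell as a block but by modest amounts. Of 43 mitosis genes, 40 fell and none rose, with a median log2 fold change of -0.73, and 4 fell more than 2-fold. Of 39 DNA replication genes, 34 fell and none rose (median -0.56), and all 9 dNTP synthesis enzymes fell (median -0.65). ANLN, anillin of the cleavage furrow, was at 1129.9 and 1130.3 CPM at T0 and 476 and 506 CPM after osimertinib (-1.20 ± 0.068 (SE), adjusted p = 1.03e-13). MKI67, the antigen of proliferating cells, went from 512 and 496 to 246 and 252 CPM (-1.02). PLK1, the mitotic kinase, went from 316 and 295 to 165 and 157 CPM. RRM2, the S phase subunit of ribonucleotide reductase, was at 457 and 467 CPM at T0 and 194 and 214 CPM after osimertinib (-1.18 ± 0.073 (SE), adjusted p = 6.14e-13). CLSPN, a mediator of the replication checkpoint, went from 74.9 and 73.9 to 34.6 and 41.0 CPM. RFC3, a subunit of the clamp loader, went from 38.4 and 39.4 to 18.6 and 20.4 CPM. None of these 6 genes had overlapping groups, as was so for 99.7% of all called genes. PCNA, the sliding clamp, was at 191 and 183 CPM at T0 and 162 and 170.2 CPM after osimertinib and did not pass the test, though it did with the 4 libraries alone (adjusted p = 0.0462). Of 18 regulators of the G1 to S transition, 15 fell, led by CCNA2 and CDC25A, at -1.06 and -0.77.

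Of 7 CDK inhibitor genes, 1 rose and 2 fell. CDKN1B (p27), a FOXO target that halts CDK2, was at 60.4 and 54.0 CPM at T0 and 59.9 and 61.1 CPM after osimertinib, and CDKN1A (p21) was at 346 and 325 CPM at T0 and 311 and 287 CPM after osimertinib. CDKN2B had 0 reads in all 4 libraries, which allows no more than 0.143 CPM in any of them. CDKN1C (p57) rose, from 1.21 and 0.347 to 1.91 and 2.14 CPM, and CDKN2C and CDKN2D fell by 0.49 and 0.68. The CDKN1C call was lost without T0 replicate 2 (adjusted p = 0.144), and that of CDKN2C without T0 replicate 1 (adjusted p = 0.0509) or osimertinib replicate 2 (adjusted p = 0.144).

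Transcripts of ribosome assembly and ribosomal protein genes were also lower. Of 32 nucleolar biogenesis genes, 26 fell and none rose (median -0.49), and of 46 cytosolic ribosomal protein genes, 31 fell and none rose, by less (median -0.27). DDX21, a nucleolar helicase, went from 301 and 315 to 148 and 165 CPM (-0.98 ± 0.084 (SE), adjusted p = 3.83e-10). LYAR, a nucleolar growth regulator, went from 38.1 and 38.2 to 19.6 and 20.4 CPM (-0.93). NOP56, a core protein of the box C/D particles, whose exons also hold several small nucleolar RNAs, went from 166 and 169.9 to 94.6 and 101 CPM. Among ribosomal proteins the largest falls were in RPS12 and RPL24, at -0.52 and -0.50, and RPL3 was at 754 and 757 CPM at T0 and 791 and 753 CPM after osimertinib.

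The largest losses of reads were in the actin cytoskeleton. Of 19 actin and contractile genes, 16 fell and 1 rose, with a median log2 fold change of -1.10 and 12 past 2-fold, and their summed level was 28400 and 27000 CPM at T0 and 10500 and 10100 CPM after osimertinib. ACTB (chromosome 7, 5527147 to 5563784), cytoplasmic beta-actin and often a reference gene, was at 12739 and 12128 CPM at T0 and 4596 and 4353 CPM after osimertinib (-1.47 ± 0.069 (SE), adjusted p = 2.08e-15). ACTG1, gamma-actin, was at 5258 and 4858 CPM at T0 and 1504 and 1410.3 CPM after osimertinib (-1.80 ± 0.069 (SE), adjusted p = 3.36e-17). FLNA, filamin A, which crosslinks actin, was at 3165 and 2844 CPM at T0 and 817 and 735 CPM after osimertinib (-1.95 ± 0.079 (SE), adjusted p = 1.08e-16). TPM1, a tropomyosin that stiffens filaments, was at 1620.4 and 1721 CPM at T0 and 469.7 and 493 CPM after osimertinib (-1.80 ± 0.073 (SE), adjusted p = 1.24e-16). In all 4 genes the gap between the groups was far wider than the gap between replicates. MYH9, the heavy chain of non-muscle myosin IIA, went from 2509 and 2334 to 1236 and 1105 CPM (-1.05), and MYL9, its regulatory light chain, went from 1157 and 1038 to 542 and 492 CPM (-1.09). FHL2, an adaptor at focal adhesions, went from 91.9 and 91.1 to 49.0 and 46.3 CPM. The exception was TAGLN, the smooth muscle protein SM22, from 4.20 and 6.41 to 8.40 and 8.24 CPM, not called without T0 replicate 1 (adjusted p = 0.137). Beta- and gamma-actin have near-identical coding sequences and many processed pseudogenes, and the split of reads between them depends on the counting.

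Many actin genes are regulated by serum response factor, which binds the CArG box. A match to the 10-base CArG box, on either strand, was found in the 250 bases before the start site in 7 of 16 actin genes with a RefSeq promoter entry (43.8%), against 126 of 12201 tested genes (1.03%) and 312 of all 27305 promoters (1.14%). Among genes past 2-fold it was in 14 of 274 lower promoters (5.11%) and 7 of 550 higher ones (1.27%). The lower set still holds members of the actin list, so its share is not a separate observation. The 43.8% describes the list and not the change after osimertinib. The 3 stretches below, 100 bases each from RefSeq on GRCh38.p14 and written 5′ to 3′ on the gene's strand, are shown because they belong to lowered genes of the actin list, of which ACTG1 and FLNA fell more than 2-fold and FHL2 fell by 0.94 on the log2 scale, and capitals mark the match.
ACTG1, chr17:81512839-81512938, minus strand: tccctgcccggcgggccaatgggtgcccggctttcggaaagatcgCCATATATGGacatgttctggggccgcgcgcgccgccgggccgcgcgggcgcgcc
FLNA, chrX:154374674-154374773, minus strand: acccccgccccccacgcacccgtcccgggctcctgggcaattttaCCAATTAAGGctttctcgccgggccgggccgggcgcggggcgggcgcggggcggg
FHL2, chr2:105438560-105438659, minus strand: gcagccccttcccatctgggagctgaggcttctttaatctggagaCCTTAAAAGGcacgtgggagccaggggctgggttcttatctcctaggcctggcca
The centre of the match lies 89 bases before the start site in ACTG1, 89 in FLNA and 96 in FHL2. A match is a description of the letters and was not tested as a binding site.

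YAP and TAZ are coactivators that bind TEAD factors and are held in the cytoplasm in dense or softly spread cells. Of 20 listed YAP and TEAD genes, 15 fell and 2 rose (median -0.55). CCN2 (chromosome 6, 131948176 to 131951373), connective tissue growth factor, was at 263 and 261 CPM at T0 and 46.0 and 48.0 CPM after osimertinib (-2.48 ± 0.087 (SE), adjusted p = 7.21e-18). CCN1 was at 1099.8 and 1039 CPM at T0 and 266 and 252 CPM after osimertinib (-2.04 ± 0.070 (SE), adjusted p = 5.58e-18), and ANKRD1, a cardiac ankyrin repeat protein induced by YAP, was at 7.51 and 7.60 CPM at T0 and 2.15 and 2.18 CPM after osimertinib (-1.80 ± 0.23 (SE), adjusted p = 6.19e-07). In these 3 best known targets the replicates lay close together and the groups far apart. YAP1 itself was at 287 and 288 CPM at T0 and 284 and 279 CPM after osimertinib and did not pass the test, WWTR1 (TAZ) rose, from 73.3 and 73.2 to 109 and 107 CPM, and TEAD3 rose by 0.44. A TEAD match (GGAATG, either strand) was in 5 of 15 promoters of the list (33.3%) and 9.56% of tested genes, and the CArG box in none of the 15.

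Matrix and adhesion genes fell more often than they rose. Of 29 matrix genes, 12 fell and 3 rose, of 12 integrins, 7 fell and 1 rose, and of 20 matrix proteases and inhibitors, 11 fell and 5 rose. THBS1, thrombospondin 1, was at 1496 and 1476 CPM at T0 and 435 and 428 CPM after osimertinib (-1.78 ± 0.074 (SE), adjusted p = 1.99e-16). TNC, tenascin C, went from 632 and 599.8 to 313 and 284 CPM (-1.04). SERPINE2, an inhibitor of thrombin and urokinase, was at 66.7 and 63.0 CPM at T0 and 16.8 and 14.4 CPM after osimertinib (-2.06 ± 0.088 (SE), adjusted p = 3.08e-16). ITGAV, the alpha chain of RGD-binding integrins, went from 635 and 625 to 388 and 375 CPM (-0.72), whereas ITGB8, which pairs with it, rose by 0.21, which did not hold without any 1 of the 4 libraries (adjusted p = 0.0791 to 0.152). TIMP2 and TIMP3, inhibitors of metalloproteinases, rose, from 432 and 416 to 702 and 702 CPM and from 328 and 329 to 485 and 491 CPM. COL3A1, a fibrillar collagen, rose, from 13 and 12 to 19.9 and 19.6 CPM.

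**Figure D3:**
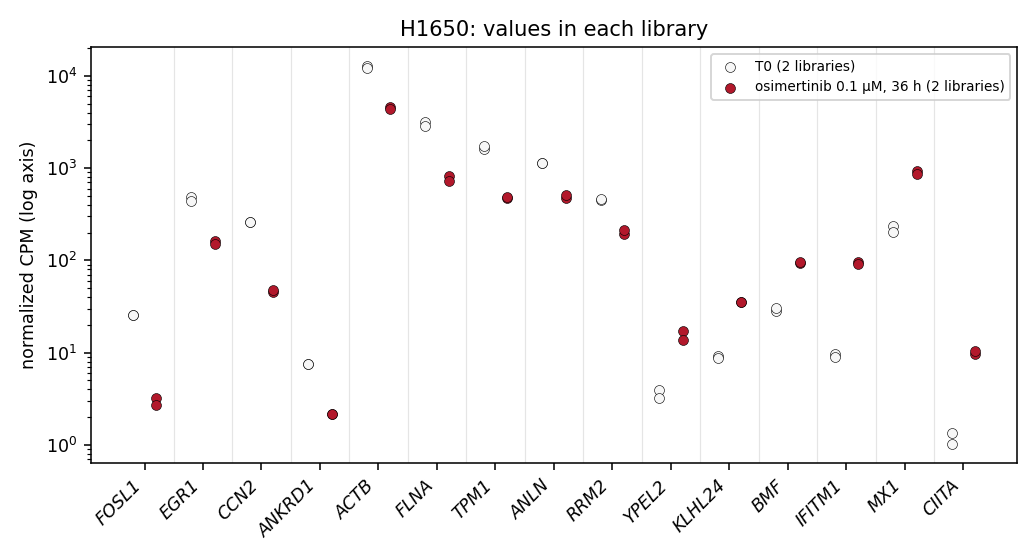
Normalized CPM on a log axis in each of the 2 T0 libraries (open circles) and 2 osimertinib libraries (red circles) of H1650 for 15 genes. In each gene the 2 groups do not overlap, from FOSL1, EGR1, CCN2, ANKRD1, ACTB, FLNA, TPM1, ANLN and RRM2, which were lower, to YPEL2, KLHL24, BMF, IFITM1, MX1 and CIITA, which were higher.

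Interferon-stimulated genes, which cells switch on to resist viruses, rose almost without exception. Of 44 listed, 43 rose, none fell and 34 passed 2-fold, with a median log2 fold change of 1.21, and ISG20, at 6.48 and 5.52 CPM at T0 and 8.54 and 9.04 CPM after osimertinib, was the member that did not pass the test, though it did in a fit of the 4 libraries alone (adjusted p = 0.0175). IFITM1 (chromosome 11, 313506 to 315272), which blocks viral entry, was at 9.61 and 8.99 CPM at T0 and 96.1 and 91.0 CPM after osimertinib (3.33 ± 0.11 (SE), adjusted p = 5.58e-18), the largest rise of all called genes with a mean of at least 10 CPM. It has close paralogs and shares exon positions with IFITM2, so some reads may be split between them. MX1, a dynamin-like antiviral GTPase, was at 235 and 202 CPM at T0 and 932 and 858 CPM after osimertinib (2.03 ± 0.079 (SE), adjusted p = 4.31e-17). OAS1, which makes the activator of RNase L, was at 52.4 and 44.7 CPM at T0 and 252 and 232 CPM after osimertinib (2.32 ± 0.088 (SE), adjusted p = 3.35e-17). ISG15, the ubiquitin-like modifier, was at 109.6 and 82.8 CPM at T0 and 325 and 275 CPM after osimertinib (1.64 ± 0.10 (SE), adjusted p = 6.66e-13). Its activating enzyme UBA7, outside the list, was at 18.8 and 18.5 CPM at T0 and 110 and 107 CPM after osimertinib, TRIM22 at 10.7 and 13.4 CPM at T0 and 80.0 and 75.9 CPM after osimertinib and IFI44L at 28.1 and 24.5 CPM at T0 and 164 and 154 CPM after osimertinib. Every treated library was above every T0 library in these 7 genes, and 99.7% of all called genes had no overlap. The levels of the 7 genes at T0 were already well above the floor.

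The genes for the factors and sensors of this response rose as well, 15 of 19, with 1 fall. STAT2 went from 114 and 120.4 to 218 and 244 CPM and IRF9 went from 3.03 and 3.32 to 4.63 and 6.10 CPM, which was not called by DESeq2 (adjusted p = 0.0559) or without T0 replicate 1 (adjusted p = 0.0656) or osimertinib replicate 2 (adjusted p = 0.177). STING1, the adaptor of the DNA sensing pathway, went from 36.4 and 41.6 to 126 and 131 CPM (1.72 ± 0.083 (SE), adjusted p = 4.44e-15), whereas CGAS, the enzyme that feeds it, fell, from 21.2 and 19.3 to 13 and 13.4 CPM. DHX58 (LGP2), a cytosolic RNA sensor, went from 6.39 and 6.95 to 23.2 and 21.1 CPM. Of 14 listed interferons and receptors 8 passed the filter, of which none rose, IFNAR1 fell, from 76.7 and 75.7 to 63.9 and 61.7 CPM (not called without osimertinib replicate 2, adjusted p = 0.0648), and 7 did not pass the test, with IFNB1, IFNA1, IFNK, IFNL2, IFNL3 and IFNG all below the filter.

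Antigen presentation genes rose with them. Of 21 MHC class I genes, 18 rose and none fell (median 0.69), and of 12 tested MHC class II genes, 11 rose and none fell (median 1.49). B2M, the light chain of class I, was at 627 and 623 CPM at T0 and 1128 and 1073 CPM after osimertinib (0.82 ± 0.068 (SE), adjusted p = 2.28e-10). HLA-B went from 237 and 217 to 379 and 319 CPM, and its transactivator NLRC5 went from 25.4 and 24.0 to 59.3 and 55.7 CPM. PSMB10, an immunoproteasome subunit, went from 13.4 and 11.2 to 40.4 and 28.1 CPM. HLA genes are highly similar and polymorphic, so their reads can be split between them. CIITA, the master regulator of class II, was at 1.03 and 1.35 CPM at T0 and 9.69 and 10.6 CPM after osimertinib (3.07 ± 0.25 (SE), adjusted p = 1.32e-10), and CD74, the invariant chain, was at 14.8 and 14.6 CPM at T0 and 40.0 and 29.7 CPM after osimertinib. HLA-DRA, the alpha chain of HLA-DR, rose, from 1.26 and 1.23 to 4.06 and 3.61 CPM. Among checkpoint ligands, VTCN1 (B7-H4) went from 30.0 and 29.8 to 80.4 and 72.6 CPM, LGALS9 went from 1.40 and 1.16 to 9.69 and 7.97 CPM and CD274 (PD-L1) went from 3.17 and 3.82 to 5.78 and 5.08 CPM (not called by DESeq2, adjusted p = 0.0693, or without T0 replicate 1, adjusted p = 0.143, or osimertinib replicate 1, adjusted p = 0.131), whereas PVR fell, from 388 and 372 to 179 and 170.4 CPM.

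The interferon-stimulated response element, searched on both strands as a pair of GAAA with 2 bases of any kind between them, was in the 250 upstream bases of 22 of 35 list members with a promoter entry (62.9%), against 2.34% of tested genes and 3.07% of all promoters. It was in 32 of 550 promoters of genes higher by more than 2-fold (5.82%) and in 4 of 274 of those lower (1.46%). The higher set still holds members of the interferon list, so its share is not a separate observation. The 62.9% describes the list and counts members whether called or not, among them ISG20, which was not called. These 3 stretches belong to strongly raised members, with the element in capitals.
IFITM1, chr11:313940-314039, plus strand: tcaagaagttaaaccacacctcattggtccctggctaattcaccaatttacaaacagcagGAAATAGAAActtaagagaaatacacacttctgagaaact
IFI44L, chr1:78620330-78620429, plus strand: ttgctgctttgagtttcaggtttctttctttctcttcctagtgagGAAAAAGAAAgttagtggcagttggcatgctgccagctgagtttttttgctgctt
IFIT1, chr10:89392475-89392574, plus strand: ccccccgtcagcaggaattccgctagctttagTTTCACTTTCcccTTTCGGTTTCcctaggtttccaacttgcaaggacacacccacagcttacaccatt
IFIT1, whose protein binds viral RNA, holds 2 matches on the other strand and was at 129 and 105 CPM at T0 and 459 and 409.8 CPM after osimertinib (1.89 ± 0.086 (SE), adjusted p = 1.03e-15).

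Promoters of the cell cycle lists held other letters. The cell cycle homology region, TTTGAA on either strand, was in 21 of 37 mitosis promoters (56.8%) and in 8.82% of tested genes, and an E2F site, TTTGGCGC or TTTCCCGC, was in 11 of 34 replication promoters (32.4%) and in 2.93% of tested genes. These shares describe the lists and count members whether called or not, and the 11 include PCNA, which was not called. The next 2 stretches show the former in ANLN and PLK1 and the last 2 the latter in RFC3 and UHRF1, which was chosen for its site and recruits DNA methylation at the fork.
ANLN, chr7:36389762-36389861, plus strand: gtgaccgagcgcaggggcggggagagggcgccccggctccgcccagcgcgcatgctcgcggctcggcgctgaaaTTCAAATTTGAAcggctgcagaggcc
PLK1, chr16:23678789-23678888, plus strand: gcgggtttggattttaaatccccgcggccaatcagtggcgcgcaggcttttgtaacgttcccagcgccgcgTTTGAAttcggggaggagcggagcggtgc
RFC3, chr13:33818048-33818147, plus strand: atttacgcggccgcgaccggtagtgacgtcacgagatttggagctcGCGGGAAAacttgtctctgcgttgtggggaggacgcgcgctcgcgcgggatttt
UHRF1, chr19:4909401-4909500, plus strand: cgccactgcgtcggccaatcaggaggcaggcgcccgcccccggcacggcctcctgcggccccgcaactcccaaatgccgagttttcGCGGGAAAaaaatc
Among all genes lower by more than 2-fold, the cell cycle homology region was in 9.85% of promoters and the E2F site in 1.09%, and among those higher by more than 2-fold, in 11.8% and 0.909%. Of the listed genes, 0 of 39 DNA replication genes and 4 of 43 mitosis genes passed 2-fold. Nearly all lowered genes of these lists therefore lie outside both sets, whose shares do not describe them.

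**Figure D4:**
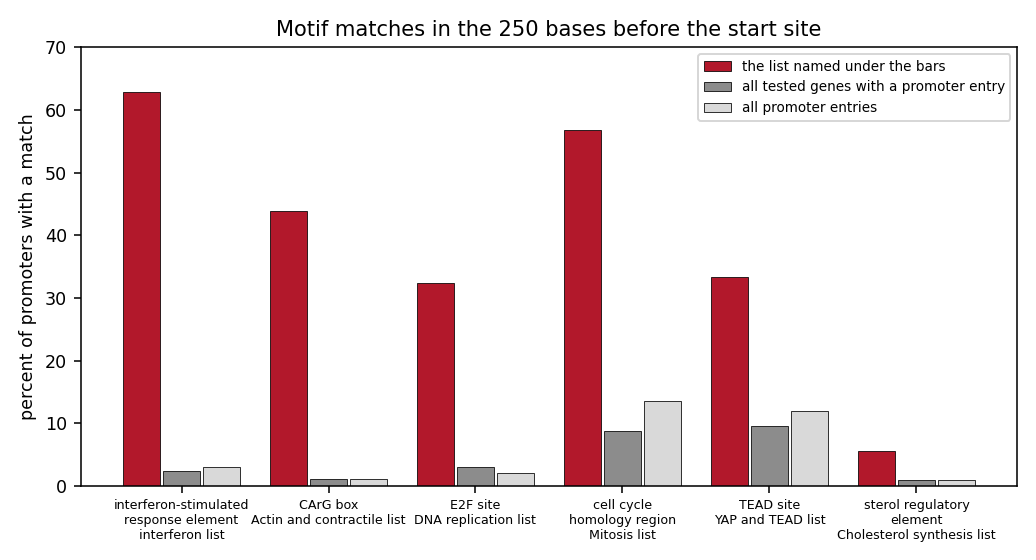
Bars give the percent of promoters with at least 1 match in the 250 bases before the start site, for the list named under each group of bars (red), all tested genes with an entry (dark grey) and all promoter entries (light grey). The interferon element stands at 62.9% in its list against 2.34% of tested genes, and the sterol element at 5.56% of the cholesterol list against 0.877%.

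Genes of the apoptotic machinery moved on the BH3-only side. Of 8 BH3-only genes, 5 rose and none fell, and of 7 anti-apoptotic and effector BCL2 genes, BOK fell (not called without T0 replicate 1, adjusted p = 0.177) and the rest did not pass the test. BCL2L11 (BIM), which binds and blocks the survival proteins, was at 42.6 and 48.3 CPM at T0 and 73.8 and 77.5 CPM after osimertinib (0.73 ± 0.083 (SE), adjusted p = 5.32e-08). BMF, a sensor tied to the cytoskeleton, was at 28.3 and 30.8 CPM at T0 and 94.0 and 95 CPM after osimertinib (1.67 ± 0.089 (SE), adjusted p = 3.06e-14). BBC3 (PUMA) went from 5.97 and 5.13 to 17.1 and 14 CPM. The groups did not overlap in any of these, as in 99.7% of all called genes. MCL1 was at 241 and 248 CPM at T0 and 242 and 233 CPM after osimertinib and BCL2L1 (BCL-XL) at 134 and 133 CPM at T0 and 126 and 117 CPM after osimertinib. Of 22 caspase, IAP and death receptor genes, 7 rose and 4 fell. TNFSF10 (TRAIL), the death ligand, was at 0.933 and 1.74 CPM at T0 and 11.9 and 11.6 CPM after osimertinib (3.10 ± 0.22 (SE), adjusted p = 9.64e-12), CASP1, the inflammatory caspase, was at 1.54 and 1.74 CPM at T0 and 12.2 and 9.35 CPM after osimertinib, and the decoy receptor TNFRSF10D fell, from 13.7 and 12.1 to 7.49 and 8.37 CPM.

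Epithelial markers rose more often than they fell. Of 16 tested epithelial and lung markers, 11 rose and 1 fell, and of 23 genes of epithelial to mesenchymal transition, 5 rose and 7 fell. CDH1, E-cadherin, was at 1209.6 and 1214 CPM at T0 and 1422 and 1328 CPM after osimertinib, a small rise of 0.18 ± 0.071 (SE) (adjusted p = 0.046) that did not pass with RLE normalization (adjusted p = 0.0797), with DESeq2 (adjusted p = 0.054) or without any 1 of the 4 libraries (adjusted p = 0.0506 to 0.304). VIM, vimentin, was at 45.7 and 44.9 CPM at T0 and 16.5 and 14.6 CPM after osimertinib (-1.54 ± 0.12 (SE), adjusted p = 6.64e-11), and FN1, fibronectin, went from 849 and 801 to 519.6 and 447 CPM (-0.77). CLDN4, a tight junction claudin, rose, from 203 and 185 to 366 and 320.4 CPM. Keratins were divided, with 6 of 15 higher and 5 lower. KRT6A, a keratin of activated and wounded epithelium, was at 22.3 and 23.0 CPM at T0 and 2.96 and 3.03 CPM after osimertinib (-2.92 ± 0.14 (SE), adjusted p = 2.98e-15), and KRT6B, its close paralog, was at 11.9 and 13.2 CPM at T0 and 0.764 and 0.490 CPM after osimertinib. KRT15, a basal keratin, rose, from 22.7 and 26.7 to 77.1 and 71.4 CPM, and KRT8, of simple epithelium, went from 2929 and 2756 to 3864 and 3510.5 CPM. Of 6 tested mucins, 4 rose, none fell and 2 were not called. MUC1 was at 119.5 and 118 CPM at T0 and 214 and 217 CPM after osimertinib and MUC16 (CA125) at 0.746 and 1.00 CPM at T0 and 6.78 and 7.30 CPM after osimertinib (2.98 ± 0.19 (SE), adjusted p = 1.3e-12). S100A8, a subunit of calprotectin, rose, from 11.5 and 12 to 44.7 and 48.9 CPM, and S100A2, of basal cells, fell, from 30.4 and 29.7 to 7.97 and 9.84 CPM.

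Sterol synthesis genes rose, and fatty acid synthesis genes were divided. Of 24 cholesterol synthesis genes, 17 rose and none fell, with a median of 0.45 and 2 past 2-fold. INSIG1, the sterol-regulated brake of the SREBP factors, was at 29.9 and 29.3 CPM at T0 and 62.6 and 61.4 CPM after osimertinib (1.07 ± 0.090 (SE), adjusted p = 2.72e-10), and MSMO1, a sterol methyl oxidase, was at 52.1 and 56.1 CPM at T0 and 114 and 113 CPM after osimertinib (1.07 ± 0.080 (SE), adjusted p = 2.66e-11). Of 13 fatty acid synthesis genes, 7 rose and 4 fell. SCD, the delta-9 desaturase, was at 733 and 749.7 CPM at T0 and 1530.3 and 1508 CPM after osimertinib (1.03 ± 0.069 (SE), adjusted p = 2.68e-12), FASN, fatty acid synthase, went from 482 and 430.1 to 867 and 797 CPM (0.87), and ELOVL5 fell, from 171 and 186 to 122 and 125 CPM. The sterol element TCACNCCAC was found in 1 of 18 promoters of the cholesterol list.

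Lysosomal genes rose in 17 of 31 and fell in 4, with CTSD, cathepsin D, going from 105 and 89.1 to 219 and 173 CPM and CTSH from 83.0 and 81.1 to 167 and 149 CPM. Glycolysis and hypoxia genes showed 5 rises and 9 falls of 30, with LDHA, lactate dehydrogenase A, at 1234 and 1331 CPM at T0 and 891 and 955 CPM after osimertinib (-0.47) and VEGFA at 101 and 108 CPM at T0 and 185 and 186 CPM after osimertinib (0.83). Among 29 genes of the ATF4 and unfolded protein responses, 12 rose and 8 fell. Those that fell included the amino acid transporter chains SLC7A5, from 1017 and 885 to 454 and 384 CPM (-1.18 ± 0.080 (SE), adjusted p = 3.48e-12), and SLC3A2, from 359 and 334 to 209 and 188 CPM, and those that rose included NUPR1, a stress-induced chromatin protein, from 13.2 and 13.8 to 45.4 and 44.2 CPM. Of 25 genes of NRF2, aldehyde dehydrogenases and the aryl hydrocarbon receptor, 10 rose and 12 fell: CYP1A1 went from 9.93 and 8.53 to 2.34 and 1.96 CPM and HMOX1, heme oxygenase 1, went from 90.4 and 86.2 to 43.3 and 41.0 CPM (-1.07). Some metabolic groups showed little change, among them 34 nuclear-encoded respiratory chain subunits, with 5 higher and 4 lower and a median of 0.04.

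Transcripts of the mitochondrial genome were higher in 7 of 15 genes and lower in none (median 0.22), with large shifts of reads and small folds. MT-ND4 had the largest gain of CPM among called genes, from 7260.4 and 8864 to 10137 and 11180 CPM (0.40 ± 0.094 (SE), adjusted p = 0.00118). MT-RNR2, the large ribosomal RNA, went from 3582 and 4371 to 4807 and 5709 CPM (0.40). MT-CO1 went from 8144 and 9471 to 10481 and 11134 CPM (0.30) and was not called without T0 replicate 1 (adjusted p = 0.132). In all 3 genes the gap between the 2 T0 libraries was wider than the gap from the upper T0 library to the lower treated one, and the share of mitochondrial reads given above moved in the same order. The largest losses of CPM outside the actin genes were PABPC1, the poly(A)-binding protein, from 3564 and 3405 to 2252 and 2152 CPM, and MYH9.

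Among called genes with a mean of at least 10 CPM, the 10 with the highest fold changes were IFITM1, PLAAT4, STEAP4, RAB26, TRIM22, IFI44L, UBA7, GBP4, SUSD2 and GGT1, at log2 values from 2.38 to 3.33. STEAP4, a metalloreductase of the Golgi and plasma membrane, was at 21.0 and 20.7 CPM at T0 and 139 and 140.1 CPM after osimertinib (2.74 ± 0.086 (SE), adjusted p = 1.71e-18). RAB26, a GTPase of secretory granules, was at 4.01 and 3.70 CPM at T0 and 25.3 and 25.1 CPM after osimertinib (2.71 ± 0.15 (SE), adjusted p = 4.05e-14). GBP4, a guanylate-binding protein, was at 5.92 and 6.44 CPM at T0 and 36.3 and 32.6 CPM after osimertinib. The 10 lowest were FOSL1, KRT6A, SPOCD1, GLIPR1, CCN2, NEXN, SERPINE2, CCN1, FLNA and NKX2-5, from -3.11 to -1.84. GLIPR1, which overlaps KRR1 on the other strand, was at 78.8 and 85.9 CPM at T0 and 14.8 and 14.2 CPM after osimertinib (-2.51 ± 0.11 (SE), adjusted p = 6.56e-16). NEXN, an actin-binding protein that overlaps an antisense gene, was at 21.4 and 23.0 CPM at T0 and 5.35 and 4.45 CPM after osimertinib (-2.18 ± 0.19 (SE), adjusted p = 3.54e-10). NKX2-5, a homeobox factor best known from the heart, was at 20.4 and 16.1 CPM at T0 and 4.68 and 5.48 CPM after osimertinib.

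Some genes had almost no reads in one of the groups. There were 97 genes called higher with at most 3 reads in each T0 library, and 65 called lower with at most 3 reads in each osimertinib library. With T0 set to the floor of 3 reads per library, CYP4F8 was at least 11.2-fold higher, GPR12 at least 10.4-fold and DIRAS3 at least 10.1-fold. Their reads were 2 and 1 at T0 against 21 and 42 in CYP4F8, 3 and 2 against 23 and 35 in GPR12, and 0 and 1 against 31 and 25 in DIRAS3, an imprinted RAS-like tumour suppressor. MYEOV was at least 7.86-fold lower, with 26 and 25 reads at T0 and 0 and 3 after osimertinib. These rest on few reads.

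Erlotinib-treated H1650 cells received 10 µM of the reversible inhibitor and osimertinib-treated cells 0.1 µM of the covalent one, so the drug and the dose cannot be told apart between them. Set directly against each other, without T0, osimertinib and erlotinib libraries differed in 1672 genes (8.75% of those tested), 959 higher and 713 lower with osimertinib, of which 183 passed 2-fold. This count was lower when single libraries were left out: it was 782 without osimertinib replicate 1, 1045 without erlotinib replicate 2 and 1093 without erlotinib replicate 1. Of the genes called against T0, 1063 (15.6%) were also called between the drugs. The lists stood far apart in this respect: 18 of 24 cholesterol genes, 24 of 30 glycolysis and hypoxia genes and 23 of 29 ATF4 and unfolded protein response genes were called, against 3 of 43 mitosis genes and 2 of 46 ribosomal protein genes.

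The serine synthesis enzyme PSAT1 was at 541 and 553 CPM after erlotinib, against 108 and 101 CPM after osimertinib and 90.4 and 89.3 CPM at T0, and the log2 difference, osimertinib minus erlotinib, was -2.38 ± 0.072 (SE) (adjusted p = 7.37e-19). ASNS, asparagine synthetase, was at 10.3 and 9.54 CPM after erlotinib, 1.86 and 1.74 CPM after osimertinib and 2.05 and 1.85 CPM at T0. CYP1A1, the classical target of the aryl hydrocarbon receptor, was at 17.6 and 25.7 CPM after erlotinib, above T0, and at 2.34 and 1.96 CPM after osimertinib, below T0 (-3.33 ± 0.21 (SE), adjusted p = 9.23e-12). SCD was at 771 and 812 CPM after erlotinib, which was not called against T0 (adjusted p = 0.308). It lay below the osimertinib libraries (0.94 ± 0.069 (SE), adjusted p = 1.18e-10). CP, ceruloplasmin, was at 23.5 and 19.7 CPM after erlotinib, 73.6 and 64.9 after osimertinib and 23.5 and 25.3 at T0 (1.68 ± 0.14 (SE), adjusted p = 8.95e-10). PFKFB4, a regulator of glycolysis whose exons overlap UCN2, was at 14.5 and 13.5 CPM after erlotinib, under both other groups (1.52 ± 0.11 (SE), adjusted p = 9.21e-11). IFITM1, at 63.9 and 63.7 CPM after erlotinib, and MX1, at 720.3 and 672 CPM, were raised under both drugs and further under osimertinib, by 0.55 ± 0.096 (SE) (adjusted p = 0.000224) and 0.36 ± 0.075 (SE) (adjusted p = 0.00176), the second of which was lost without osimertinib replicate 1 (adjusted p = 0.0581). For FOSL1, at 3.92 and 3.68 CPM after erlotinib, and CCN2, at 44.3 and 39.9 CPM, the drugs did not differ by the test, with log2 differences of -0.36 ± 0.18 (SE) and 0.16 ± 0.089 (SE). FOSL1 does not stand for its list: 12 of 16 ERK-linked transcription factors were called between the drugs, against 8.75% of tested genes. So were 5 of 10 ERK feedback genes and 2 of 14 other ERK targets. The feedback median against T0 was -0.303 with osimertinib and 0.635 with erlotinib. SPRY4 was lower with osimertinib (-1.29, adjusted p = 0.000102) and EGR1 higher (1.01, adjusted p = 1.92e-08).

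**Figure D5:**
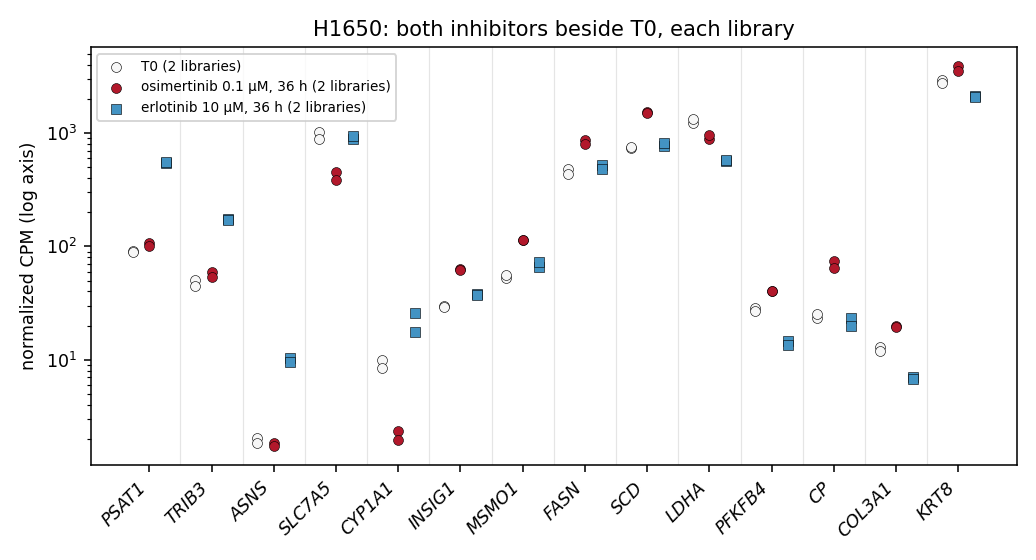
Normalized CPM on a log axis in each H1650 library at T0 (open circles), after 36 h of 0.1 µM osimertinib (red circles) and after 36 h of 10 µM erlotinib (blue squares), for 14 genes. PSAT1, TRIB3 and ASNS stand apart in the erlotinib libraries, SCD, FASN and CP in the osimertinib libraries, and CYP1A1 lies on opposite sides of T0.

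PC9 cells, given the same dose of osimertinib for the same time, showed a different response in many of the genes: the H1650 change minus the PC9 change was called in 8014 genes (41.9% of those tested). In PC9 alone 61.4% of the tested genes were called against its own T0. Of 5437 genes called in both lines, 4637 moved the same way and 800 in opposite directions. All 800 were called in the difference, which opposite calls in the same fit make almost certain, so this adds no support. The lines share no libraries, and in each of them the drug and the time in culture cannot be told apart. ETV1 rose in H1650, as given above, and in PC9 had means of 5.01 CPM at T0 and 0.0743 CPM after osimertinib, under the floor of 3 reads, so that no size of the difference is given (adjusted p of the difference = 3.72e-15). TGM2, transglutaminase 2, went from 367 and 367 to 489 and 469 CPM in H1650 and had means of 1678 CPM at T0 and 25.2 CPM after osimertinib in PC9 (6.44 ± 0.10 (SE), adjusted p = 5.79e-26). MYL9 fell in H1650, and in PC9 its means were 4.74 CPM at T0 and 91.3 CPM after osimertinib (-5.35 ± 0.16 (SE), adjusted p = 5.05e-20). GASK1B, a Golgi-associated protein, went from 66.3 and 66.7 to 32.3 and 30.6 CPM in H1650, and had means of 5.71 CPM at T0 and 91.9 CPM after osimertinib in PC9 (-5.09 ± 0.15 (SE), adjusted p = 9.77e-20). These 4 genes were taken from those called in opposite directions in the lines.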

How the data were processed

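RNA-seq of 12 libraries was analysed, 2 for each of 6 groups of line (H1650, PC9) and treatment (T0, erlotinib, osimertinib), grouped by the labels. The deposited values are raw read counts per gene, which the authors made with featureCounts in the DolphinNext pipeline. The processing notes in the labels name GRCh38 and DESeq2. The aligner, annotation and strandedness are not given in the sources used here, so reads of overlapping and antisense genes may not be told apart. The paper's supplement calls the 2 RNA-seq replicates of a group biological. The labels name replicates without giving separate cultures, so p-values measure the spread between these samples.

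Counts were tested with edgeR 4.0.16 (R 4.3.3, limma 3.58.1) by the quasi-likelihood test over all 12 libraries and 6 groups, with TMM normalization and filterByExpr, which left 19108 of 60591 genes, and called at a Benjamini-Hochberg adjusted p under 0.05 over all tested genes. Residual and prior degrees of freedom were 6 and 20.7. Libraries held 17961765 to 26346187 reads. Floors (3 reads) cover counting error only, whereas standard errors also carry the spread between libraries that the fit estimated. Tested on simulated data, the fit of osimertinib against T0 recovered 180 of 200 genes changed by 1 on the log2 scale, with 6 false calls over 18784 genes. The changes were balanced up and down and set only in genes over 1 CPM at T0, with noise at the fitted spread. In the data 35.7% of tested genes were called and 4725 lay under 1 CPM. The simulated numbers therefore do not give the error rates of the reported fit. DESeq2 1.42.0 and the alternatives of the closing section were also run.

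Gene positions came from GENCODE 29 on GRCh38, which matched 18596 tested symbols (97.3%), and promoters from RefSeq on GRCh38.p14, of which the 250 bases before the start were searched. Named genes were the 10 highest and 10 lowest changes with a mean of at least 10 CPM, the 5 largest gains and losses of CPM, the key members and the 2 highest and 2 lowest called members of each list, the 3 highest and lowest differences from erlotinib and from PC9, and the 3 highest genes with at most 3 reads in one group. ISG20, YAP1, KRT18, CD14, BAD, TEK, SFTPD, AGER and UHRF1 were named outside this rule after their values were seen. Members of the epithelial and lung list that were not called or below the filter were named to complete it. The members and lists were chosen with earlier results of these data known. Some genes that the rule names are not reported here. List members are not independent, and lists received no test.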

Additional observations from a re-analysis of the deposited data

Results flagged for a closer look

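The response to osimertinib differed between the lines in 8014 genes by edgeR's quasi-likelihood test of the difference itself, H1650 minus PC9, with Benjamini-Hochberg adjustment, and the 6 genes given here were taken by their size among those called in opposite directions in the lines. TGM2 had a log2 difference of 6.44 ± 0.10 (SE) (adjusted p = 5.79e-26) and rose in H1650, while in PC9 it had means of 1678 CPM at T0 and 25.2 CPM after osimertinib. MYL9 had a difference of -5.35 ± 0.16 (SE) (adjusted p = 5.05e-20), RBMS3 of -5.24 ± 0.27 (SE) (adjusted p = 3.21e-15) and GASK1B of -5.09 ± 0.15 (SE) (adjusted p = 9.77e-20), all lower in H1650 and higher in PC9. RBMS3, an RNA-binding protein, was at 11.5 and 12.3 CPM at T0 and 9.83 and 8.51 CPM after osimertinib in H1650, and in PC9 its means were 0.648 CPM at T0 and 18.9 CPM after osimertinib. ETV1 and IRX5 rose in H1650 and fell in PC9, with adjusted p-values of 3.72e-15 and 0.0293, and their PC9 means after osimertinib, 0.0743 and 0 CPM, lay under the highest floor of 0.168 CPM, so no size of their difference is given. The difference in IRX5 was lost without PC9 T0 replicate 1 (adjusted p = 0.348), PC9 osimertinib replicate 1 (adjusted p = 0.121) or PC9 osimertinib replicate 2 (adjusted p = 0.0869). IRX5, a homeobox factor, was at 87.5 and 61.5 CPM at T0 and 111 and 97.2 CPM after osimertinib in H1650, a rise that was lost without T0 replicate 2 (adjusted p = 0.161), and the H1650 fall of RBMS3 was lost with DESeq2 (adjusted p = 0.102), with no filter on low counts (adjusted p = 0.0666) and without T0 replicate 1 (adjusted p = 0.0655), T0 replicate 2 (adjusted p = 0.187) or osimertinib replicate 2 (adjusted p = 0.279). With 2 libraries per group, single libraries that stand apart within a group were not searched for.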

How the results depend on the processing

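The count of genes that differed between osimertinib and T0 in H1650 stayed within 1.5 times the reported 6816 under every alternative tried: 6809 with RLE normalization, 6808 with upper quartile normalization, 5812 with DESeq2, 6589 with no filter on low counts, 6121 with at least 10 reads in every library, 6931 and 6792 with the 6 H1650 or the 4 compared libraries alone, 5013 at an adjusted p of 0.01, and 5270 to 5489 without 1 library. DESeq2 shared 5773 of its 5812 calls with edgeR. The count over 2-fold was 674 with at least 10 reads in every library of the series, a filter that also removes genes with few reads in any 1 library of either line. Osimertinib against erlotinib ranged from 782 to 1140 genes without 1 library, each such fit assuming that the lone sample of its arm varies like the other groups, and had 2857 genes with the replicate number as a block. With that block, osimertinib against T0 had 7860 genes, 3890 higher and 3970 lower, 1434 past 2-fold, and the difference between the lines had 8835. Deviations of same-numbered T0 and osimertinib libraries from their group means correlated at 0.373 across genes, those of T0 and erlotinib at 0.225, of osimertinib and erlotinib at 0.171, and of PC9 T0 and osimertinib at 0.203. The groups share only 2 numbers and the labels give no shared origin, so the numbers were not taken to pair the samples. Under the block CDKN1A (adjusted p = 0.0362), PCNA (adjusted p = 0.0236) and ISG20 (adjusted p = 0.0302) also passed the threshold. No alternative moved the median log2 fold change of all tested genes by more than 0.0127.

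For the single genes named, 2265 of 2334 recomputed values kept their direction and side of the threshold, 51 were no longer called, 10 became called and 8 changed sign. All 8 were in genes not called against T0 in the reported fit. Without 1 of the 4 libraries, log2 fold changes ranged from -0.020 to 0.078 in EGFR, from -0.15 to 0.085 in FOS, from -0.0026 to 0.066 in RPL3, from -0.37 to 0.060 in TEK and from -0.081 to 0.049 in TXNIP. Of 53 list medians, 9 changed sign in some alternative, among them those of the PI3K pathway, NF-kB genes and p53 targets. The small rises of PSAT1 (adjusted p = 0.0686, 0.17 and 0.0991 without T0 replicate 1, osimertinib replicate 1 and T0 replicate 2) and TRIB3 (adjusted p = 0.0523 with DESeq2, 0.26 without osimertinib replicate 1 and 0.317 without T0 replicate 2) against T0 were also lost. The causes of these shifts were not tested. Of 4725 genes under 1 CPM, where reads are fewest, 5.69% were called higher and 3.24% lower.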

Other observations

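Other gene groups were mostly divided. Over all tested genes 17.8% were called higher and 17.9% lower. Some groups lie near these shares, such as p53 targets, at 23.5% and 11.8%, and Notch genes, at 7.69% and 23.1%. Their counts are a description and not a result about the group. Of 23 tested genes of NF-kB and of chemokines, 7 rose and 6 fell. The inhibitor NFKBIA rose, from 35.5 and 34.6 to 77.0 and 72.7 CPM, as did the chemokine CCL5, from 17.1 and 17.1 to 39.7 and 38.8 CPM, whereas the cytokine IL6 fell, from 72.9 and 75.2 to 33.4 and 35.7 CPM (-1.10 ± 0.11 (SE), adjusted p = 4.46e-09), and the neutrophil chemokine CXCL8 fell, from 1.59 and 1.47 to 0.382 and 0.134 CPM. Of 16 complement genes, 7 rose, among them C3, from 8.63 and 7.06 to 17.9 and 14.7 CPM, and CFD, factor D, from 8.54 and 6.95 to 22.2 and 18.8 CPM, and 1 fell. Of 17 genes of TGF-beta and BMP signalling, 8 fell and 2 rose, with ID4 going from 42.2 and 35.8 to 17.8 and 15.4 CPM. Of 12 Kruppel-like factors, 5 fell and 3 rose, with KLF6 going from 134 and 136 to 76.2 and 75.2 CPM and KLF9 from 6.39 and 4.78 to 13.4 and 13 CPM. Of 16 clock genes, 5 rose and 3 fell, with PER3 going from 47.8 and 45.1 to 17.9 and 19.3 CPM. Of 17 p53 targets, 4 rose and 2 fell, with BTG2, an antiproliferative factor, going from 3.78 and 3.90 to 10.2 and 13.5 CPM and AEN, an exonuclease, from 35.5 and 35.3 to 16.1 and 16 CPM. Of 16 fatty acid oxidation genes, 6 rose and none fell, of 13 Notch genes, 1 rose and 3 fell, and of 8 ERBB feedback inhibitors, 3 rose and 2 fell, CBLB going from 14.3 and 15.1 to 30.0 and 28.6 CPM.

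The direction of the called genes differed with level. Of 2331 genes over 100 CPM on average, 39.0% were called lower and 21.8% higher, whereas of 4428 genes between 1 and 10 CPM, 9.53% were called lower and 18.8% higher. By chromosome, 24.2% of the 269 tested genes of chromosome 18 were called lower and 10.0% higher, and of the 1365 genes of chromosome 19, 12.7% were called lower and 21.7% higher. Genes of a chromosome are not independent, and these shares are given as a description.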
